A study of Homo sapiens with 6 samples.

Results

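The genes described here were the machinery of apoptosis together with UACA and PAWR. They were chosen by name, as 43 gene names among the 48868 in the deposited table, and all 43 were found. Where a name stood for several gene identifiers, the identifier with the highest mean FPKM (fragments per kilobase of transcript, scaled to the depth of the sample) was used. This concerned only DIABLO. RNA-seq had been carried out on poly(A) RNA of PANC-1, an established human pancreatic ductal carcinoma line, to ask which transcripts differ after exposure to maslinic acid (MA), a plant triterpenoid. The group MA PANC-1 held 3 samples exposed to 40 μM MA for 24 h, and the group PANC-1 held 3 samples labelled as untreated. The labels call the control untreated, while the study's methods give 0 μM MA for the sequenced control and name DMSO as the control agent for the treated lines in general. The methods call the 3 samples of each group biological replicates, and all 6 came from 1 cell line. Total counts per sample ran from 56978375 to 63984133 in MA PANC-1 and from 59422939 to 70275355 in PANC-1.

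Apoptosis is a form of programmed cell death carried out by caspases, proteases that cut many cellular proteins. In the intrinsic pathway, BAX and BAK1 open pores in the outer mitochondrial membrane, cytochrome c leaves the mitochondrion, and the apoptosome built from it and APAF1 activates CASP9. BCL2 and its pro-survival relatives hold the pore formers back, and BH3-only proteins relieve that restraint. In the extrinsic pathway, death receptors at the cell surface recruit adaptors that activate CASP8, and IAP proteins restrain caspases and shape receptor signalling. PAWR, also called PAR-4, is a pro-apoptotic protein that sensitises tumour cells to death signals. UACA, also called nucling, is an ankyrin-repeat and coiled-coil protein that has been linked to APAF1 and is known to bind PAWR. Much of this machinery acts by protein cleavage, release and binding, which RNA levels do not measure.

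Epithelial and mesenchymal filament genes were abundant in all samples, as known for this line, while the ductal keratins KRT7 and KRT19 were low. KRT18, a keratin of simple epithelia, was measured at 279, 329 and 278 FPKM in MA PANC-1 replicates 1, 2 and 3 and at 323, 338 and 313 FPKM in PANC-1 replicates 1, 2 and 3. VIM, the intermediate filament protein of mesenchymal and many cultured cells, was at 521 to 754 FPKM over the 6 samples. KRT7 was at 1.40 to 2.19 FPKM, and KRT19 was at or near 0 in every sample, at no more than 0.109 FPKM. Leukocyte and endothelial markers summed to at most 0.154 and 0.180 FPKM in any sample, and the acinar and islet markers examined had no counts. Of the fibroblast markers, COL1A1 was at 2.64 to 5.96 FPKM, LUM at 0.351 to 0.616 FPKM, COL1A2 at no more than 0.405 FPKM with no counts in 3 samples, and DCN, a defining gene of fibroblasts, at no more than 0.0107 FPKM. 1 library stood apart. On the first principal component of all tested genes, which held 33.2% of the variance, MA PANC-1 replicate 2 lay at −49.9, against −11.9 and 5.65 for MA PANC-1 replicates 1 and 3 and 11.03 to 25.4 for the untreated samples. Calls with and without this library are given below.

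Promoter sequences were available for 34 of the 43 genes (RefSeq, GRCh38.p14) as the 250 bases before the gene's start. Those of UACA and PAWR are shown because both transcripts were lower after MA, and those of BIRC2 and BIRC3 because these neighbours on chromosome 11 were also both lower. They are written 5′ to 3′ on the strand of the gene. Capitals mark matches, on either strand, to GGGCGG (the GC box), CCAAT (the CCAAT box), TATAAA (the TATA box), TGANTCA (an AP-1 motif), TGACGTCA (the CRE motif), GGAATG (a TEAD motif) or the NF-kB consensus.
UACA (chr15:70763559-70763808, minus strand): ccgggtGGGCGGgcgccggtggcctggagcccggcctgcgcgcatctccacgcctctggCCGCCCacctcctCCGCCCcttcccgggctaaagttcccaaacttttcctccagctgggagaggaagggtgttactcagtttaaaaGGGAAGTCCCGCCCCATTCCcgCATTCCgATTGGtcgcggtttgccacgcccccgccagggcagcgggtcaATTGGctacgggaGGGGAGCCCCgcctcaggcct
PAWR (chr12:79690965-79691214, minus strand): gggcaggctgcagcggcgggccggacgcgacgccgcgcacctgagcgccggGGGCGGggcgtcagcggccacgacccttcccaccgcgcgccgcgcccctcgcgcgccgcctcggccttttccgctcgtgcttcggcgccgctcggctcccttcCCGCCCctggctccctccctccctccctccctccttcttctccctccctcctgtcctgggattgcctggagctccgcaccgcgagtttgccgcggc
BIRC2 (chr11:102346964-102347213, plus strand): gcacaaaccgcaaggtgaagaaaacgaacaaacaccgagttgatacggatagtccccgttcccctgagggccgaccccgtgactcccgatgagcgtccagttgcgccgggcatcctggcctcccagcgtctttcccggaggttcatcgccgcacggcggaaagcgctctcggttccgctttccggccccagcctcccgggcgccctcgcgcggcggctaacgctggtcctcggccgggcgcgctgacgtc
BIRC3 (chr11:102317234-102317483, plus strand): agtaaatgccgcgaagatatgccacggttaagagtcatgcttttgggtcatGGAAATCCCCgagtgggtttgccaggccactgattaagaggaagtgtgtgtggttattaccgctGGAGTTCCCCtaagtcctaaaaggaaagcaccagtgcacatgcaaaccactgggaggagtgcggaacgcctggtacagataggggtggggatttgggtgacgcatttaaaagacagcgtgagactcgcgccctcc
The UACA promoter was 68.0% G or C and held 4 GC boxes, 2 CCAAT matches, 2 TEAD matches and 2 positions matching the NF-kB consensus, at −105 to −96 and at −21 to −12 from the start. The match at −105 to −96 overlapped the GC box at −97 to −92. The PAWR promoter was 77.2% G or C and held 2 GC boxes and no other match. BIRC3 held 2 NF-kB matches, at −199 to −190 and at −135 to −126. BIRC2 held no match to these letters within the window. NF-kB matches were found in 4 of the 34 promoters (BIRC3, BMF, CFLAR and UACA) and in 9.57% of 27305 promoters of the same length. GC boxes were found in 22 of the 34 and in 42.3% of all promoters, CCAAT in 16 and in 33.0%, and the TEAD letters in 1 (UACA) and in 11.9%. TATAAA was found in 2 of the 34 and in 11.1% of all promoters, the AP-1 letters in 2 and in 6.6%, and the CRE letters in 0 and in 1.77%. A match describes the letters only and does not show that a factor binds there.

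Of the 43 genes, 41 had a mean of at least 0.1 FPKM over the 6 samples and were tested among 17774 genes by edgeR's quasi-likelihood test on counts. A gene was called lower or higher at an unadjusted p under 0.05, and a DEG (differentially expressed gene) when it also changed at least 2-fold, which were the study's criteria. Under the first rule 4 of the 41 were lower (9.76%) and 5 higher (12.2%), 9 in all (22.0%). Of all genes tested, 5.86% were lower and 5.37% higher, 11.2% in all. UACA was the 1 DEG among the 41 (DEGs were 1.92% of all genes tested). None of the 41 passed an adjusted p of 0.05 in edgeR after Benjamini-Hochberg correction over all genes, where 7 genes did (0.0394%), and the smallest adjusted p among the 41 was 0.375. DESeq2 gave 3 of the 41 an adjusted p under 0.05, CASP9 (0.0262), BIRC3 (0.0334) and BIRC2 (0.0478), and left BIK without one. Of the 14623 genes that DESeq2 gave an adjusted p, 263 (1.8%) were under 0.05. The groups did not overlap in FPKM for 12 of the 41 (29.3%), 5 with lower and 7 with higher MA samples, against 19.9% of all genes tested (11.1% lower and 8.79% higher).

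The changes went both ways. The median log2 fold change was 0.02 over the 41 genes and −0.00166 over all genes tested, with 19 values below and 22 above 0. The median absolute log2 fold change was 0.274 over the 41 genes and 0.224 over all genes tested. It was smaller than 0.5 in 34 of the 41 (82.9%), against 79.1% of all genes tested. The median coefficient of variation between replicates was 10.2% in PANC-1 and 10.7% in MA PANC-1, against 12.5% and 18.7% over all genes tested. In untreated cells 17 of the 43 had a mean above 10 FPKM and 8 had a mean under 1 FPKM. A lower level can come from fewer cells that carry a transcript or from less of it per cell, which bulk RNA cannot tell apart.

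**Figure D1:**
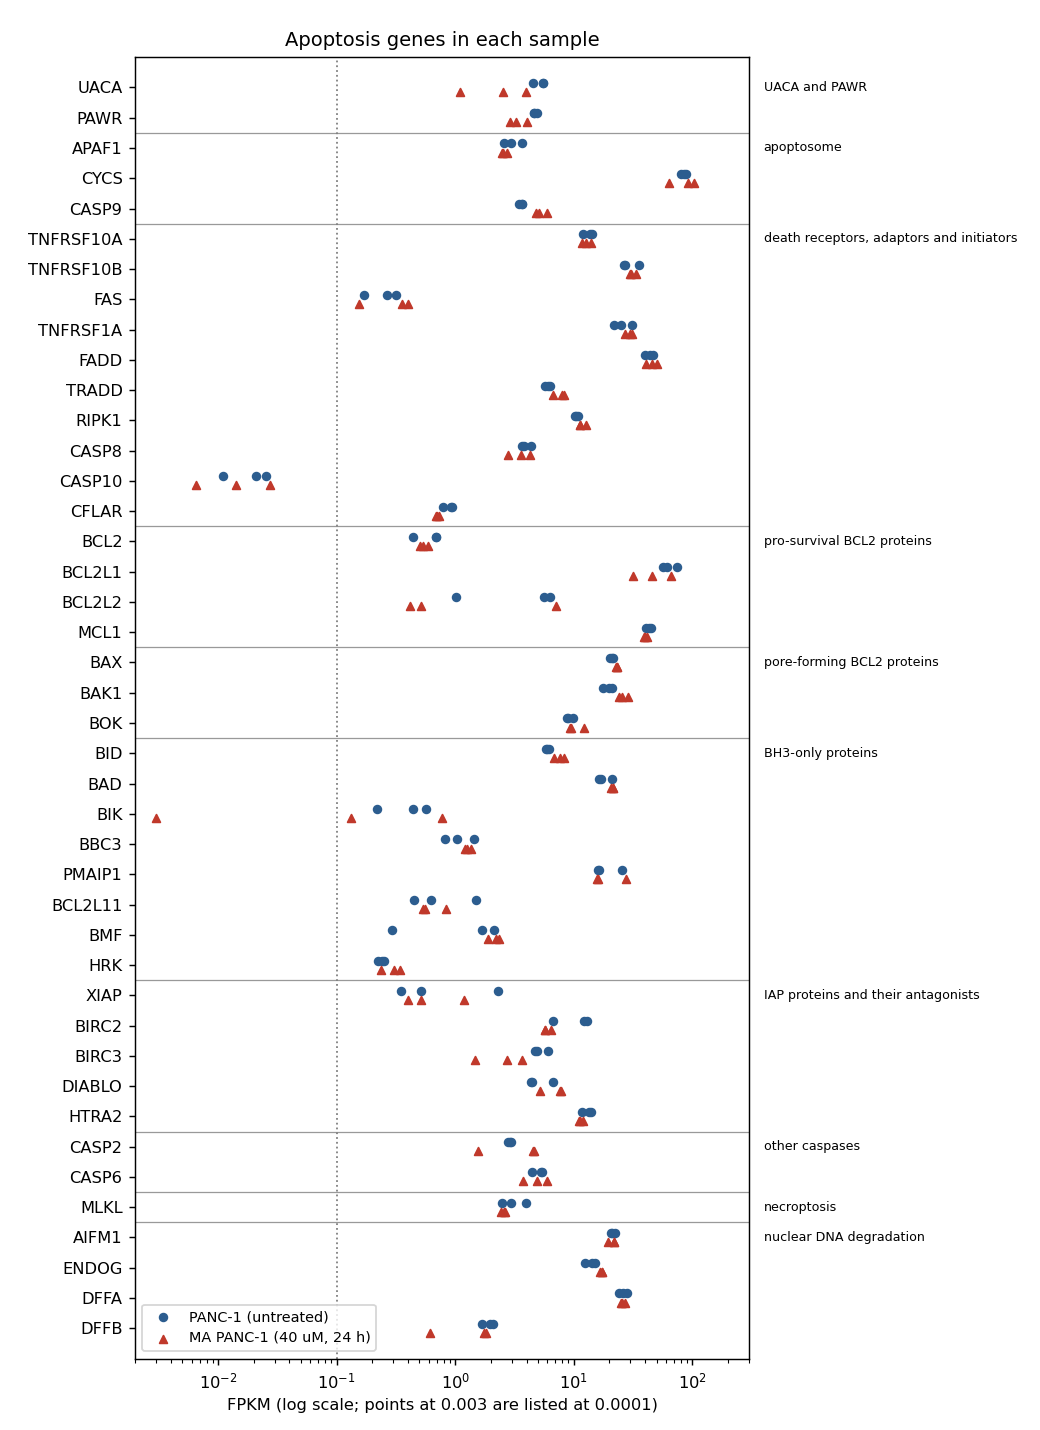
FPKM (log axis) of 42 apoptosis genes in each sample, untreated PANC-1 as blue circles and MA PANC-1 as red triangles, grouped by role; the dotted line is the 0.1 FPKM filter. CYCS (80.2 to 88.1 FPKM in PANC-1) is the highest gene, CASP10 lies left of the filter, and the point of BIK without counts is set at the left edge. The groups do not overlap for 12 of the 41 genes tested (29.3%), against 19.9% of all genes tested. RIPK3, which had no counts, is not drawn.

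UACA and PAWR were both lower after MA, UACA to 0.495 and PAWR to 0.737 of the untreated level. UACA (ENSG00000137831, GRCh38, chr15:70654554-70763558, minus strand) was measured at 2.54, 1.11 and 3.99 FPKM in MA PANC-1 replicates 1, 2 and 3 and at 5.55, 4.56 and 5.50 FPKM in PANC-1. Every MA sample was below every untreated sample, and replicate 2 was the lowest of the MA samples. The means were 2.55 ± 1.44 and 5.20 ± 0.560 FPKM (SD, n = 3 each), and the log2 fold change was −1.01 with a standard error of 0.38 (unadjusted p = 0.0314 and adjusted p = 0.432, edgeR). Without MA PANC-1 replicate 2 the change was −0.67 (unadjusted p = 0.0183), which no longer met the 2-fold criterion.

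PAWR (ENSG00000177425, chr12:79574979-79690964, minus strand) was measured at 3.27, 2.89 and 4.02 FPKM in MA PANC-1 replicates 1, 2 and 3 and at 4.59, 4.65 and 4.87 FPKM in PANC-1. The groups did not overlap, and the untreated samples lay close together. The means were 3.39 ± 0.574 and 4.70 ± 0.148 FPKM, and the log2 fold change was −0.44 with a standard error of 0.12 (unadjusted p = 0.00813 and adjusted p = 0.388, edgeR). PAWR kept its call when any 1 sample was left out, with changes from −0.55 to −0.37. For UACA the unadjusted p rose to 0.0708 without MA PANC-1 replicate 1, to 0.0682 without PANC-1 replicate 1 and to 0.0715 without PANC-1 replicate 3.

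The IAP proteins were the other group with lower members. BIRC2 and BIRC3 encode cIAP1 and cIAP2, ubiquitin ligases that hold caspases and RIPK1 in check at tumour necrosis factor receptors, and their genes lie 7817 bases apart on chromosome 11. BIRC3 (chr11:102317450-102339394, plus strand) was measured at 2.74, 1.48 and 3.69 FPKM in MA PANC-1 replicates 1, 2 and 3 and at 6.11, 4.92 and 4.70 FPKM in PANC-1. No MA sample reached the lowest untreated sample, and replicate 2 was again lowest. The log2 fold change was −0.97 with a standard error of 0.29 (unadjusted p = 0.0113 and adjusted p = 0.388, edgeR), a fold of 0.509. BIRC2 (chr11:102347211-102378670, plus strand) was measured at 5.75, 5.69 and 6.44 FPKM after MA and at 12.96, 6.74 and 12.3 FPKM in PANC-1. The 3 MA samples were alike, and PANC-1 replicate 2 lay just above them while the other untreated samples were far higher. The log2 fold change of BIRC2 was −0.80 with a standard error of 0.23 (unadjusted p = 0.0108 and adjusted p = 0.388, edgeR), and −1.04 without PANC-1 replicate 2. Both calls held when any 1 sample was left out.

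XIAP, the IAP that binds active caspases most directly, was low and scattered. It was measured at 0.397, 1.19 and 0.514 FPKM after MA and at 0.518, 0.348 and 2.29 FPKM in PANC-1. The groups overlapped, 1 sample stood high in each, and the log2 fold change of −0.51 (standard error 0.75, unadjusted p = 0.516) became 0.75 without PANC-1 replicate 3. DIABLO (SMAC) and HTRA2, mitochondrial proteins that bind IAPs once released, were not called. HTRA2, the most abundant of these 5 genes, was measured at 11.2, 11.9 and 11.03 FPKM after MA and at 13.4, 13.9 and 11.6 FPKM in PANC-1. DIABLO was measured at 7.68, 5.21 and 7.88 FPKM after MA and at 6.74, 4.38 and 4.44 FPKM in PANC-1, a log2 fold change of 0.44 with a 95% interval of −0.05 to 0.94 (unadjusted p = 0.0718). DIABLO was called by DESeq2 (unadjusted p = 0.0443) and without PANC-1 replicate 1 (0.68, unadjusted p = 0.00934). Within this group 2 of 5 were lower, 0 higher and 3 not called, against 5.86% lower and 5.37% higher of all genes tested. The 2 lower genes are the neighbours BIRC2 and BIRC3.

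In the apoptosome, CASP9 was higher after MA while its partners were not called. CASP9 (chr1:15490832-15524889, minus strand), the initiator caspase of the intrinsic pathway, was measured at 5.14, 6.005 and 4.81 FPKM in MA PANC-1 replicates 1, 2 and 3 and at 3.66, 3.45 and 3.69 FPKM in PANC-1. The groups were well separated and the untreated samples were nearly equal. CASP9 had a log2 fold change of 0.60 with a standard error of 0.14, a fold of 1.52 (unadjusted p = 0.0033 and adjusted p = 0.375, edgeR), which was the smallest p of the 41 genes, and the call held when any 1 sample was left out. CYCS (cytochrome c), the most abundant of all 43, was measured at 92.7, 63.9 and 103 FPKM after MA and at 85.0, 80.2 and 88.1 FPKM in PANC-1. The untreated samples fell inside the range of the MA samples, where replicate 2 was lowest. APAF1, the scaffold, was at 2.50 to 2.75 FPKM after MA and at 2.56 to 3.66 FPKM in PANC-1.

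**Figure D2:**
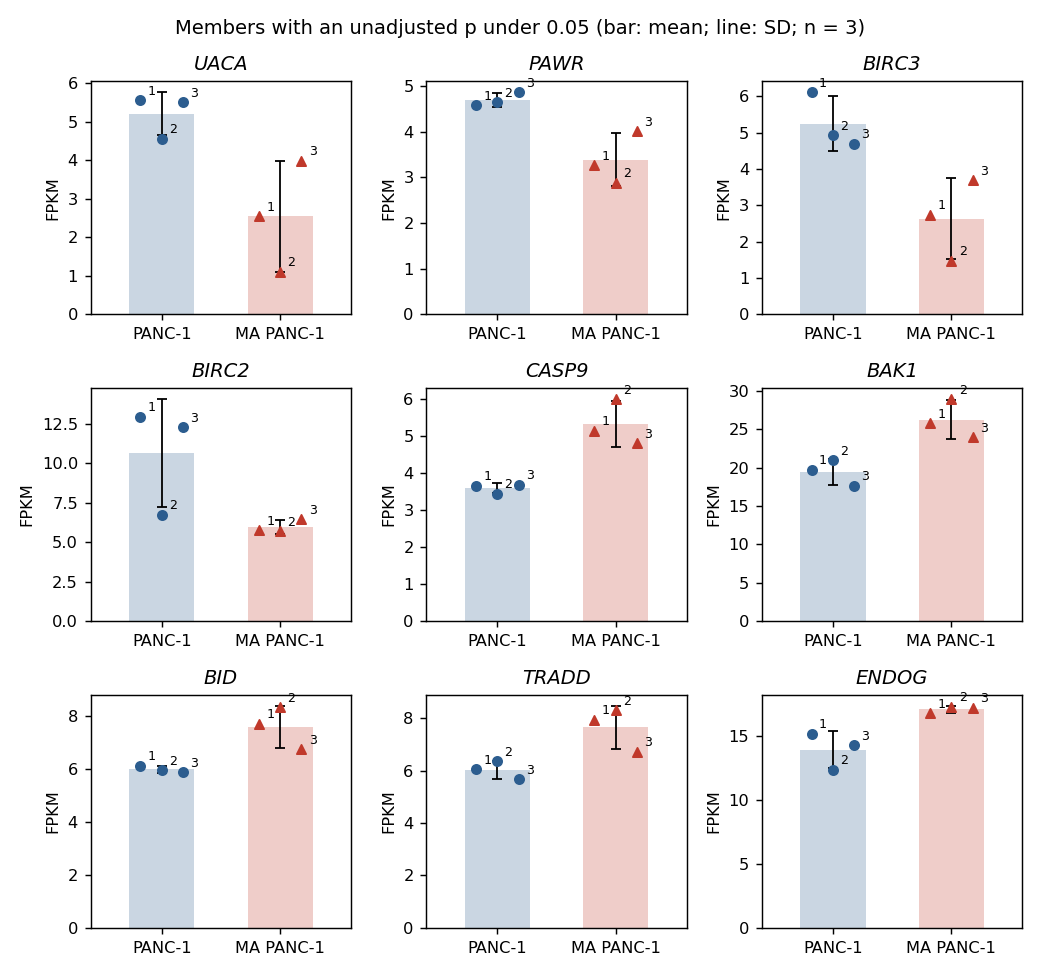
FPKM of the 9 genes with an unadjusted p under 0.05, with each sample as a numbered point, the group mean as a bar and the SD as a line (n = 3 per group). In all 9 panels the MA PANC-1 samples lie on 1 side of the untreated samples, and replicate 2 is the MA sample farthest from the untreated mean in each, by very little in BIRC2 and ENDOG.

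Of the pore formers, BAK1 was higher and BAX and BOK were not called. BAK1 (chr6:33572547-33580293, minus strand) was measured at 25.8, 28.9 and 24.0 FPKM in MA PANC-1 replicates 1, 2 and 3 and at 19.7, 21.0 and 17.6 FPKM in PANC-1. BAK1 had a log2 fold change of 0.47 with a 95% interval of 0.15 to 0.79, a fold of 1.39 (unadjusted p = 0.00952 and adjusted p = 0.388, edgeR), and the call held when any 1 sample was left out. BAX was measured at 23.2, 22.8 and 23.0 FPKM after MA and at 21.1, 20.4 and 21.3 FPKM in PANC-1. Its groups did not overlap either, but the log2 fold change of 0.17 (95% interval −0.03 to 0.38, unadjusted p = 0.0837) was not called. BOK, a relative whose activity depends less on other BCL2 proteins, was at 9.38 to 12.2 FPKM after MA and at 8.81 to 9.87 FPKM in PANC-1.

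None of the 4 pro-survival BCL2 genes was called. BCL2L1 (BCL-X), the most abundant of them, was measured at 46.1, 31.4 and 65.6 FPKM after MA and at 61.2, 74.9 and 57.0 FPKM in PANC-1. Its groups overlapped through MA PANC-1 replicate 3, and the log2 fold change of −0.41 (95% interval −0.96 to 0.15, unadjusted p = 0.126) was −0.68 without that sample (unadjusted p = 0.00973), −0.21 without MA PANC-1 replicate 2 (unadjusted p = 0.312) and −0.28 without PANC-1 replicate 2 (unadjusted p = 0.323). MCL1, a short-lived pro-survival protein, was measured at 40.2, 39.2 and 41.6 FPKM after MA and at 43.2, 44.6 and 40.8 FPKM in PANC-1, a log2 fold change of −0.05 with a 95% interval of −0.24 to 0.14. BCL2 itself was scarce, at 0.506 to 0.590 FPKM after MA and at 0.442 to 0.694 FPKM in PANC-1.

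BCL2L2 (BCL-W) varied more between replicates than between groups. It was measured at 7.03, 0.416 and 0.518 FPKM after MA and at 6.27, 1.03 and 5.62 FPKM in PANC-1. 1 MA sample and 2 untreated samples were high, and the log2 fold change was −0.68 with a 95% interval of −3.30 to 1.94 (unadjusted p = 0.561). Without MA PANC-1 replicate 1 it was −3.13 (unadjusted p = 0.00603). It was −0.18 and −0.19 without MA PANC-1 replicate 2 or 3, and −0.31, −1.15 and −0.45 without PANC-1 replicate 1, 2 or 3, none of them called. With every sample kept, it was −1.42 under the replicate block (unadjusted p = 0.102, edgeR). By limma it was −1.51, −1.39 and −0.83 with pseudocounts of 0.01, 0.1 and 1, also not called. The annotation also holds BCL2L2-PABPN1, a read-through transcript that overlaps BCL2L2, with counts of 264, 367 and 412 in MA PANC-1 and 497, 101 and 187 in PANC-1. The counts of BCL2L2 itself were 1996, 136 and 153 in MA PANC-1 and 2207, 340 and 1666 in PANC-1. With the counts of overlapping genes on the same strand added to those of BCL2L2, the log2 fold change was −0.39 (unadjusted p = 0.627).

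Ratios of FPKM within a sample set the pore formers beside their restraints. The BAX to BCL2L1 ratio was 0.503, 0.727 and 0.351 in MA PANC-1 and 0.345, 0.272 and 0.374 in PANC-1. MA PANC-1 replicate 3 fell within the untreated samples. The BAX to BCL2 ratio was 43.1, 38.6 and 45.5 in MA PANC-1 and 30.4, 29.4 and 48.1 in PANC-1. The groups overlapped through PANC-1 replicate 3. The BAK1 to MCL1 ratio was 0.640, 0.739 and 0.576 in MA PANC-1 and 0.456, 0.470 and 0.432 in PANC-1. For this last ratio the groups were apart, with replicate 2 of each group highest.

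Of the 8 BH3-only genes, which encode the sensors that start the intrinsic pathway, BID was higher and 7 were not called. BID (chr22:17734138-17774770, minus strand) links the pathways, since its product is cut by CASP8 and then acts on BAX and BAK1. It was measured at 7.71, 8.34 and 6.76 FPKM in MA PANC-1 replicates 1, 2 and 3 and at 6.14, 5.97 and 5.88 FPKM in PANC-1. The groups did not overlap, and replicate 2 was the highest MA sample. BID had a log2 fold change of 0.38 with a standard error of 0.13, a fold of 1.31 (unadjusted p = 0.0199 and adjusted p = 0.426, edgeR), and the call was kept in 3 of 6 fits that left out 1 sample. BAD, whose product binds BCL-X, was among the most abundant BH3-only genes with PMAIP1, at 21.4, 21.5 and 20.6 FPKM after MA and at 16.4, 21.2 and 17.1 FPKM in PANC-1. PANC-1 replicate 2 lay within the MA samples.

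The remaining BH3-only genes were low or uneven. PMAIP1 (NOXA), which had a higher untreated mean than BAD (19.2 against 18.2 FPKM) and a lower mean after MA (19.8 against 21.2 FPKM), was measured at 16.1, 15.7 and 27.6 FPKM after MA and at 16.3, 16.1 and 25.4 FPKM in PANC-1. Replicate 3 was the high sample in both groups, and the ranges overlapped. BBC3 (PUMA) was at 1.21 to 1.37 FPKM after MA and at 0.827 to 1.45 FPKM in PANC-1. BMF was at 1.89 to 2.33 FPKM and at 0.290 to 2.12 FPKM, with PANC-1 replicate 2 far below the other 5 samples. That sample was in turn the highest for BCL2L11 (BIM), at 1.49 FPKM against 0.450 to 0.831 FPKM in the rest. HRK was at 0.223 to 0.344 FPKM over the 6 samples, and BIK had no counts in MA PANC-1 replicate 1 and 0.133 to 0.769 FPKM elsewhere.

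In the extrinsic pathway 1 of the 9 genes tested was called, against 11.2% of all genes tested. TRADD (chr16:67154185-67159909, minus strand), the adaptor of tumour necrosis factor receptor 1, was measured at 7.94, 8.29 and 6.73 FPKM in MA PANC-1 replicates 1, 2 and 3 and at 6.06, 6.37 and 5.68 FPKM in PANC-1. The groups were apart, but MA PANC-1 replicate 3 was close to PANC-1 replicate 2. TRADD had a log2 fold change of 0.38 with a standard error of 0.15 (unadjusted p = 0.0376 and adjusted p = 0.435, edgeR), and the call was kept in 1 of 6 fits that left out 1 sample. FADD, the adaptor of the death receptors for FAS ligand and TRAIL, was the most abundant of the group at 45.5, 50.5 and 41.01 FPKM after MA and 43.9, 46.3 and 39.8 FPKM in PANC-1. Replicate 2 was the highest and replicate 3 the lowest in both groups, and the ranges overlapped.

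The death receptors were not called. TNFRSF10B, a TRAIL receptor, was measured at 33.2, 29.7 and 30.5 FPKM after MA and at 27.4, 35.6 and 26.5 FPKM in PANC-1, a log2 fold change of 0.10 with a 95% interval of −0.21 to 0.41. TNFRSF10A, the other TRAIL receptor that signals death, was at 11.7 to 13.9 FPKM after MA and at 12.0 to 14.2 FPKM in PANC-1. TNFRSF1A was at 27.3 to 30.9 FPKM and at 21.7 to 30.9 FPKM. FAS was scarce in both groups, at 0.155 to 0.398 FPKM.

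Below the receptors, RIPK1 and CFLAR had groups that did not overlap but were not called. RIPK1, a kinase of death receptor complexes, was at 11.2 to 12.8 FPKM after MA and at 10.3 to 10.9 FPKM in PANC-1, a log2 fold change of 0.19 (unadjusted p = 0.0876). CFLAR (cFLIP), which blocks CASP8 at the receptor, was measured at 0.692, 0.704 and 0.730 FPKM after MA and at 0.784, 0.916 and 0.940 FPKM in PANC-1, a log2 fold change of −0.27 (unadjusted p = 0.0655). CASP8 was at 2.77 to 4.29 FPKM after MA and at 3.68 to 4.39 FPKM in PANC-1. CASP10, an initiator caspase related to CASP8, had 15, 5 and 8 counts after MA and 9, 16 and 12 counts in PANC-1, or at most 0.0273 FPKM, and was not tested.

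**Figure D3:**
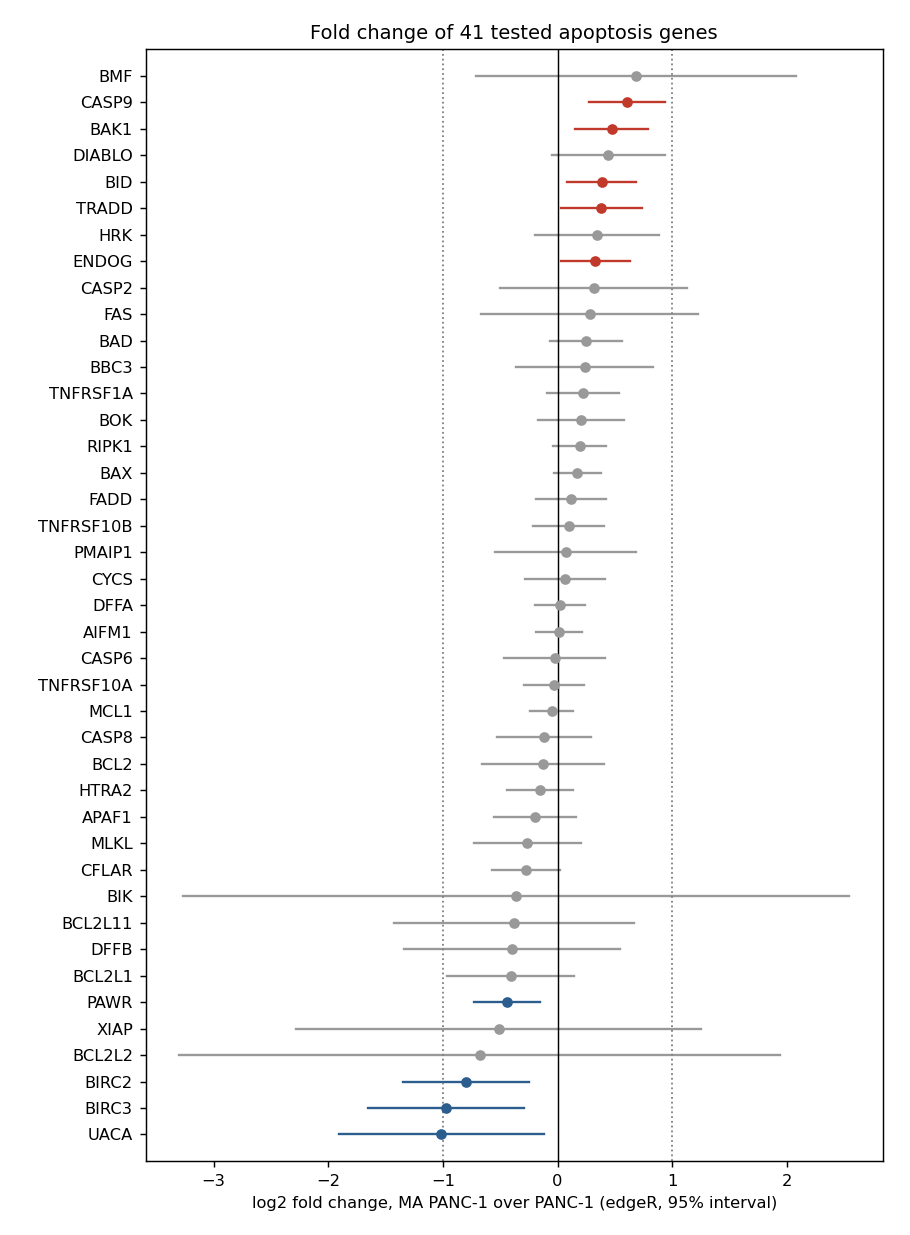
Log2 fold change of MA PANC-1 over PANC-1 with its 95% interval (edgeR) for the 41 genes tested, ordered by size, with the 4 lower calls in blue, the 5 higher calls in red and the rest in grey. Dotted lines mark a 2-fold change, which UACA passes with a call at −1.01; BCL2L2 has the interval from −3.30 to 1.94.

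The caspases outside these complexes were not called. CASP2, a caspase linked to genome stress, was measured at 4.61, 1.56 and 4.53 FPKM after MA and at 2.98, 2.80 and 2.92 FPKM in PANC-1. MA PANC-1 replicates 1 and 3 lay above all untreated samples and replicate 2 below them, and without replicate 2 the log2 fold change was 0.65 (unadjusted p = 2.81e-04). CASP6, an effector caspase that cuts nuclear lamins and the more abundant of this pair, was measured at 5.92, 3.76 and 4.88 FPKM after MA and at 5.38, 4.46 and 5.28 FPKM in PANC-1. Replicate 2 was the lowest in both groups, and the ranges overlapped.

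Of the factors that degrade DNA in the dying nucleus, ENDOG was higher and 3 were not called. ENDOG (chr9:128818500-128822676, plus strand), a mitochondrial nuclease, was measured at 16.8, 17.3 and 17.2 FPKM after MA and at 15.2, 12.4 and 14.3 FPKM in PANC-1. The MA samples were nearly equal and lay above all untreated samples. The log2 fold change was 0.33 with a standard error of 0.13 (unadjusted p = 0.0343 and adjusted p = 0.434, edgeR), and the call was kept in 1 of 6 fits that left out 1 sample. DFFA, the inhibitor and chaperone of the caspase-activated nuclease, was the most abundant at 26.9, 25.6 and 25.2 FPKM after MA and 26.2, 28.1 and 24.2 FPKM in PANC-1. The values of both groups ran through each other. DFFB, that nuclease, was at 0.608 to 1.83 FPKM after MA and at 1.69 to 2.08 FPKM in PANC-1. AIFM1, a mitochondrial flavoprotein that also acts in the nucleus, was at 19.4 to 22.1 FPKM and at 20.7 to 22.3 FPKM.

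The necroptosis pair was present in part. MLKL, which perforates the plasma membrane when phosphorylated by RIPK3, was measured at 2.56, 2.65 and 2.43 FPKM after MA and at 2.46, 3.98 and 2.97 FPKM in PANC-1 and was not called. RIPK3 itself had 0 counts in all 6 samples and was not tested. A count of 0 allows up to 3 counts per sample, which covers counting error only.

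In 8 of the 9 called genes (88.9%, all but ENDOG), the MA samples were ordered from most to least changed as on the first principal component, replicate 2, then 1, then 3. The same order was found in 47.9% of the 1995 genes with an unadjusted p under 0.05 and in 35.3% of all genes tested. The study's quality control of the reads lists the highest GC content for MA PANC-1 replicate 2, followed by replicate 1 and then replicate 3. Replicate 3 equals PANC-1 replicate 2 there, and PANC-1 replicates 1 and 3 are lowest. GC content thus follows the same order of MA samples and differs between the groups, and its part in the calls was not tested. The part of MA PANC-1 replicate 2 in the results was not tested beyond leaving it out. Without MA PANC-1 replicate 2, 5 of the 41 genes were lower and 6 higher at an unadjusted p under 0.05 (26.8%), against 10.3% of all genes tested in that fit. UACA, PAWR, BIRC2, BIRC3, CASP9, BAK1 and BID kept their calls, TRADD and ENDOG lost theirs, and CFLAR (lower) and CYCS, DIABLO and CASP2 (higher) were called in addition.

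**Figure D4:**
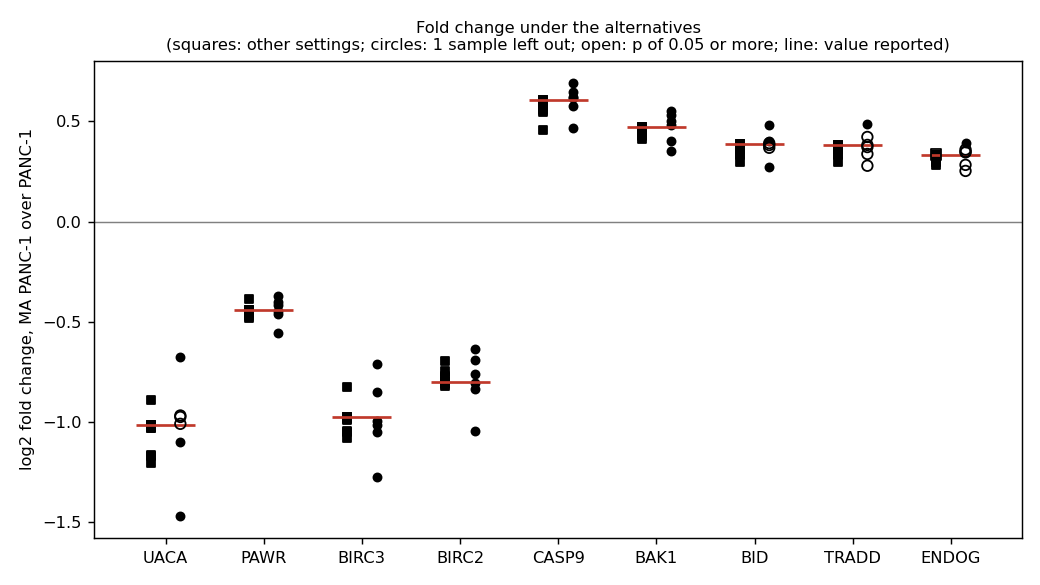
Log2 fold change of the 9 called genes under other settings (squares) and with 1 sample left out (circles), open where p was 0.05 or more, with the value reported as a red line. No gene changed its sign; PAWR, BIRC2, BIRC3, CASP9 and BAK1 have no open point, and ENDOG has open points in both classes.

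Other genes of the pathway were taken from lists of known function. Of the 76 tested, 8 were called (10.5%), against 11.2% of all genes tested. A list of 20 death ligands, further death receptors and genes acting with them had 16 genes tested. Of these 16, 0 were called, with a median log2 fold change of −0.04. The ligands TNFSF10, FASLG and TNF did not pass the filter and were not tested. The most abundant gene of the list was TNFRSF12A, the TWEAK receptor. Of 24 further BCL2 family members and mitochondrial partners tested (of 25), 2 were lower and 1 higher, with a median of 0.06. BCLAF1, a nuclear protein named for its binding to BCL2, was measured at 5.14, 2.78 and 5.16 FPKM after MA and at 6.57, 6.15 and 7.27 FPKM in PANC-1, a log2 fold change of −0.59 (unadjusted p = 0.0272, edgeR). OPA1, which shapes mitochondrial cristae, was measured at 5.18, 3.61 and 6.13 FPKM after MA and at 6.69, 6.67 and 7.18 FPKM in PANC-1, a log2 fold change of −0.43 (unadjusted p = 0.0332, edgeR). BCL2L12 was measured at 21.2, 26.6 and 21.04 FPKM after MA and at 17.8, 18.6 and 18.9 FPKM in PANC-1, a log2 fold change of 0.36 (unadjusted p = 0.0407, edgeR). MA PANC-1 replicate 2 was the farthest from the untreated samples in all 3 genes. Without it the log2 fold changes were −0.37 for BCLAF1, −0.28 for OPA1 and 0.19 for BCL2L12, each still called.

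Among 8 further caspases, activators and IAP genes tested (of 13), BIRC6 was lower and 0 were higher, with a median of 0.03. BIRC6 encodes a giant IAP with ubiquitin-conjugating activity and was measured at 3.03, 2.91 and 3.09 FPKM after MA and at 4.42, 4.60 and 4.09 FPKM in PANC-1. Both groups were narrow and far apart, and the log2 fold change was −0.50 with a standard error of 0.09 (unadjusted p = 8.15e-04 and adjusted p = 0.222, edgeR). Of 18 caspase substrates and death effectors, all tested, 1 was lower and 1 higher, with a median of 0.01. HMGB1, a chromatin protein released by dying cells, was measured at 26.7, 16.3 and 23.2 FPKM after MA and at 48.5, 32.7 and 31.4 FPKM in PANC-1, a log2 fold change of −0.74 (unadjusted p = 0.0103, edgeR). GSDME, a gasdermin that forms pores after caspase cleavage, was measured at 2.43, 2.29 and 2.79 FPKM after MA and at 2.21, 1.93 and 1.95 FPKM in PANC-1, a log2 fold change of 0.34 (unadjusted p = 0.0263, edgeR). Its groups were close, and limma did not call it at any of the 3 pseudocounts (unadjusted p = 0.0767, 0.0790 and 0.0842).

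Of 10 partners of PAWR and UACA tested (of 11), 0 were lower and 2 higher, with a median of 0.05. LGALS3 (galectin 3) was measured at 31.4, 31.5 and 31.4 FPKM after MA and at 26.2, 26.6 and 28.8 FPKM in PANC-1, a log2 fold change of 0.25 (unadjusted p = 0.0294, edgeR). PRKCZ, an atypical protein kinase C bound by PAWR, was measured at 6.03, 6.83 and 5.78 FPKM after MA and at 4.44, 5.56 and 4.96 FPKM in PANC-1, a log2 fold change of 0.36 (unadjusted p = 0.0380, edgeR). It was no longer called without MA PANC-1 replicate 2 (0.24, unadjusted p = 0.0896). None of the genes of these lists had an adjusted p under 0.05 in edgeR, while DESeq2 gave BIRC6 (0.00457) and HMGB1 (0.0487) one.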

How the data were processed

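The submitters' processing notes name cutadapt 1.9, HISAT2 2.0.4, StringTie 1.3.4d, edgeR and DESeq2. Their roles are not given in those notes, and the genome build is not given in the sources used here. Gene positions deposited with the values overlapped GENCODE 29 (GRCh38) for 58468 of 58825 identifiers and for all 43 genes described. The authors deposited 1 table with raw counts and FPKM per gene and sample, and a gene without reads was listed at 0.0001 FPKM. How reads of overlapping genes were divided, and whether strand was used, is not given in the sources used here.

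Counts of genes with a mean of at least 0.1 FPKM were scaled by TMM and tested with edgeR 4.0.16 (R 4.3.3, quasi-likelihood test, no covariate, all 6 samples), with Benjamini-Hochberg adjustment over 17774 genes. The script was run on simulated counts with known fold changes. Their spread between replicates was set smaller than in these data, where the biological coefficient of variation was 0.307. That run checks the code and does not show how many changes these samples can reveal. FPKM served for levels, the filter, the overlap of groups, the order of samples, ratios and the limma alternatives named below. Standard errors and 95% intervals came from the edgeR fit to counts. An exact permutation test of 3 against 3 samples cannot go below 0.1, so it could not reach 0.05. Alternatives were DESeq2 1.42.0 and limma 3.58.1 on log2(FPKM + pseudocount) with pseudocounts of 0.01, 0.1 and 1. In edgeR they were RLE or upper quartile factors for scaling, counts halved, overlapping genes summed, a filter of 1 FPKM, no filter and a replicate block. Each sample was also left out in turn. Motifs were searched in the RefSeq promoters, with start sites from RefSeq, which lay 0 to 34 bases from the deposited gene starts for the 4 promoters shown. Among the other promoters counted, the largest distances were 7321 bases for BOK, 2562 for CFLAR, 1536 for BCL2L11 and 674 for CASP9.

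Values in every sample were to be given for UACA and PAWR, for each gene called, for the most abundant gene of each role and for genes that failed the filter, and for genes called in the other lists, at most 5 a list by smallest p. Other genes whose sample values are given were chosen after their values were seen. The genes and lists were chosen with earlier results of these data known.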

Additional observations from a re-analysis of the deposited data

How the results depend on the processing

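PAWR, BIRC2, BIRC3, CASP9 and BAK1 kept their calls in all 11 other settings and all 6 fits that left out 1 sample. UACA and BID kept theirs in 11 and 3, TRADD in 11 and 1, and ENDOG in 10 and 1. No called gene changed sign. XIAP, not called, ranged from −1.19 to 0.75 when 1 sample was left out and changed sign without PANC-1 replicate 3. The cause was not tested. RIPK1, not called, was called without MA PANC-1 replicate 3 (0.24, unadjusted p = 0.0425). Of the genes named from the other lists, BIRC6, HMGB1, CDKN1A, TP53INP1, BTG2 and PHLDA3 kept their calls in every fit that left out 1 sample. BCLAF1 kept its call in 4 of 6, BCL2L12, GSDME and LGALS3 in 3 and OPA1 and PRKCZ in 2.

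The 7 genes with an adjusted p under 0.05 became 263 by DESeq2, 12 with a filter of 1 FPKM, 0 with the replicate block and 3 to 24 when 1 sample was left out (24 without MA PANC-1 replicate 2, 3 without PANC-1 replicate 2). Among the 41 genes described, DESeq2 gave 3 in place of 0. DEGs, 342 in all, numbered 44 by limma with a pseudocount of 1, 93 with the 1 FPKM filter, 569 without a filter and 326 to 534 when 1 sample was left out (534 without MA PANC-1 replicate 3). Genes with an unadjusted p under 0.05, 1995 in all, ranged from 1178 (without PANC-1 replicate 1) to 3213 (without MA PANC-1 replicate 3).

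Over all genes, 1409 of 17774 had an unadjusted p under 0.05 (edgeR) without MA PANC-1 replicate 1 and 1834 without MA PANC-1 replicate 2. The counts below are to be read beside these and the ranges over all genes given above. Of the described genes, 3 to 5 were lower and 2 to 6 higher when 1 sample was left out, with 2 higher without MA PANC-1 replicate 1 and 3 higher without PANC-1 replicate 2 or 3. DEGs among them, 1 as reported, were 2 by limma with a pseudocount of 0.01 or 0.1, 0 with 1, 2 with the replicate block and 0 to 3 with 1 sample left out (0 without MA PANC-1 replicate 2 or PANC-1 replicate 1, 2 without MA PANC-1 replicate 3, 3 without PANC-1 replicate 2). UACA ranged from −1.47 to −0.67 and PAWR from −0.55 to −0.37, and the median of the described genes from 0.00258 to 0.0393, with 1 sample left out. That median was −0.0124 to −0.0120 by limma and 0.0498 with the 1 FPKM filter.

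Replicate numbers were shared by the groups, but the correlations of deviations between same-numbered samples (0.0574, 0.126 and 0.0968) were not all above 0.1, so the numbers were not taken to pair samples. Each sample correlated best with its own number, which is a hint from the data only. With the replicate block, 2215 genes had an unadjusted p under 0.05, 327 were DEGs, UACA was at −1.17 (unadjusted p = 0.00884) and ENDOG was no longer called (0.33, unadjusted p = 0.0601), while DIABLO was called (0.46, unadjusted p = 0.0292). CASP10, with 5 to 16 counts per sample, and RIPK3, with 0, were below the filter.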

Other observations

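Target genes of the p53 pathway, which include several of the death genes, were examined as a further list of 20 genes, all tested, of which 1 was lower and 3 higher (20%, against 11.2% of all genes tested), with a median log2 fold change of 0.06 against −0.00166 over all genes tested. CDKN1A, an inhibitor of cyclin-dependent kinases, was measured at 27.8, 35.0 and 21.3 FPKM after MA and at 57.7, 69.2 and 70.1 FPKM in PANC-1. All MA samples lay far below the untreated samples, with a log2 fold change of −1.18 and a standard error of 0.21 (unadjusted p = 6.80e-04 and adjusted p = 0.216, edgeR). Replicate 2 was here the least changed of the MA samples. TP53INP1, a stress-induced regulator of cell death, was measured at 0.694, 0.698 and 0.861 FPKM after MA and at 0.438, 0.385 and 0.541 FPKM in PANC-1, a log2 fold change of 0.76 (unadjusted p = 0.00888, edgeR). BTG2, an antiproliferative gene, was measured at 2.85, 2.59 and 2.52 FPKM after MA and at 1.86, 1.61 and 1.95 FPKM in PANC-1, a log2 fold change of 0.59 (unadjusted p = 0.00858, edgeR). PHLDA3, an inhibitor of AKT signalling, was measured at 10.96, 13.7 and 10.96 FPKM after MA and at 9.17, 8.72 and 8.21 FPKM in PANC-1, a log2 fold change of 0.49 (unadjusted p = 0.0117, edgeR), and of 0.33 without MA PANC-1 replicate 2. None of these 20 genes had an adjusted p under 0.05 in edgeR, while DESeq2 gave CDKN1A one (2.29e-05).

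The ratio of BIRC2 to BIRC3 FPKM was 2.10, 3.85 and 1.75 in MA PANC-1 and 2.12, 1.37 and 2.61 in PANC-1, and the groups overlapped.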
